A study of Rattus norvegicus with 84 samples.

Results

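The proteoglycans, link proteins and tenascins of the perineuronal net, together with a protease that cuts them, were followed across 3 hippocampal subregions and 2 ages in male rats of the inbred F344 strain. The 9 genes were the lecticans Acan, Bcan, Ncan and Vcan, the link proteins Hapln1 and Hapln4, the tenascins Tnc and Tnr, and the metalloprotease Adamts4, chosen by symbol. All 9 were present in each table, of 15553 genes for CA1, 15706 for CA3 and 15374 for the dentate gyrus (DG), and all 9 passed the filter on low values in every table. The 16 middle-aged rats were 12 months old and the 12 young rats 5 months old, and every rat gave 1 library of each subregion from 1 hemisphere, 84 libraries in all. The labels give no treatment or genetic change for either age.

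Perineuronal nets are lattices of extracellular matrix around the cell body and proximal dendrites of some neurons, in the hippocampus mainly parvalbumin interneurons and CA2 pyramidal cells. Hyaluronan forms the backbone, lecticans bind it at their N-terminal end, link proteins hold that bond, and tenascins join lecticans at the C-terminal end. Proteases of the ADAMTS family cut the lectican core. The same lecticans also make up the looser matrix around other neurons and at nodes of Ranvier, and astrocytes and oligodendrocyte precursors transcribe several of them.

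Promoters of the 4 members that fell with age in at least 2 subregions (Bcan, Ncan, Hapln4 and Adamts4) are shown as the 250 bases before the transcription start, from RefSeq on GRCr8, which is a later build than the rn6 that the submitters' processing notes name. Capitals mark matches, on either strand, to any of 6 short motifs. These were the GC box with the letters GGGCGG, the box spelled CCAAT, the TATA box searched as TATAAA, the E-box of the form CACGTG, the AP-1 site written TGANTCA, and the SOX core given by ACAAAG.

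Bcan (chr2:175765315-175765564, minus strand): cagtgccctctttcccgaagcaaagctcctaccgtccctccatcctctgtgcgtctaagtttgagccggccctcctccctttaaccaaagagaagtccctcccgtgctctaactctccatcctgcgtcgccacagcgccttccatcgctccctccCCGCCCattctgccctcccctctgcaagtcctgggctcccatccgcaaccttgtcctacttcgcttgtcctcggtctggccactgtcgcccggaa
Ncan (chr16:19335657-19335906, plus strand): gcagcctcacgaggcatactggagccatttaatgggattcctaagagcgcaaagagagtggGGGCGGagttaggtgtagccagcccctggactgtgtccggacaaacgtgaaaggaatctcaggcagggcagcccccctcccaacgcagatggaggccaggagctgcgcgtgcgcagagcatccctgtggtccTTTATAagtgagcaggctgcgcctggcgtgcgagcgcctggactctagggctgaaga
Hapln4 (chr16:19375174-19375423, minus strand): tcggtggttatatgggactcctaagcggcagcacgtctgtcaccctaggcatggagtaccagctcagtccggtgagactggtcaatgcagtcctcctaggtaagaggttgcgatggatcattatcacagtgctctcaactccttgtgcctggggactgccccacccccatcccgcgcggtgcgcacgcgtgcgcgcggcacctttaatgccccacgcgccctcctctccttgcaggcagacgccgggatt
Adamts4 (chr13:86202761-86203010, plus strand): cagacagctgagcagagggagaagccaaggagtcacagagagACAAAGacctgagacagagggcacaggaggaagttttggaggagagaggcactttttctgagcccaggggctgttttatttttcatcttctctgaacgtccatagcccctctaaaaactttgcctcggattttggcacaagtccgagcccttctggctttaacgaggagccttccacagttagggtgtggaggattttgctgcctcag

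Bcan held a GC box 95 to 90 bases before the start. Ncan held a GC box at 189 to 184 and a TATA box at 57 to 52 bases before the start. Adamts4 held a SOX core at 208 to 203 bases before the start, and none of the 6 motifs was found in these 250 bases of Hapln4. Of 33465 rat promoters of the same length, 30.5% held the GC box, 12.9% the TATA box, 16.3% the SOX core, 34% the CCAAT box, 5.59% the E-box and 6.34% the AP-1 site, and no motif was shared by all 4. No 2 matches overlapped in these sequences. In the GRCr8 annotation each lectican gene has a link protein gene beside it: Hapln4 next to Ncan on chromosome 16, Hapln1 next to Vcan and Hapln2 next to Bcan on chromosome 2, and Hapln3 next to Acan on chromosome 1.

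Libraries held between 14447371 and 23363657 recovered reads, and levels below are normalized counts, that is, reads divided by 1 size factor per library. At 12 months, summed markers of CA1 pyramidal, CA3 pyramidal and dentate granule cells each had their highest median in the matching dissection. For CA1 pyramidal markers it was 43061, against 11278 for CA3 tissue. CA3 pyramidal markers reached 18284 in CA3, but the DG libraries still held 9649, so these markers were not confined to 1 dissection. The CA1 pyramidal median in CA1 was higher at 5 months, at 50604. There 2 of 6 such markers fell with age and 0 rose. Whether this bears on the members' changes was not tested. The animal numbers form 2 runs, the first with 10 rats of 12 months and 6 of 5 months and the second with 6 of each. The labels do not call these batches, and each age takes its own stretch of numbers in a run, so age and stretch cannot be told apart. The libraries of 1 rat stood apart: 12-month rat 10 had summed microglial markers of 42287 in CA1, against a 12-month median of 8689.7. Mitochondrially encoded genes took 11.6 ± 1.81% in 12-month rats, against 8.54 ± 2.43% in 5-month rats in CA1, 9.04 ± 1.36% in 12-month rats, against 7.59 ± 1.56% in 5-month rats in CA3, and 7.96 ± 1.25% in 12-month rats, against 7.06 ± 2.64% in 5-month rats in the DG (SD, n = 16 and 12).

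With age, the set moved mostly downward: Adamts4 and Bcan fell in all 3 subregions, Ncan in CA1 and CA3, Hapln4 in CA1 and the DG, and Tnc in CA1. Vcan and Tnr rose in the DG, and Acan and Hapln1 were called in no subregion. In CA1, 5 of the 9 fell and 0 rose, where 12.8% of all genes tested fell and 12.4% rose (25.2% called). In CA3, 3 fell and 0 rose, beside 10.8% and 10.9% of all genes. In the DG, 3 fell and 2 rose, beside 18.5% of all genes in each direction. On the log2 scale the median change of the 9 was -0.15 for CA1, -0.11 for CA3 and -0.13 for the DG, beside 0.00, 0.00 and 0.01 over all genes tested. These calls come from limma over all genes, with p-values adjusted by the Benjamini-Hochberg method at 0.05. The 9 genes were chosen with earlier results of these data known, so the shares are a description and do not test an excess.

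**Figure D1:**
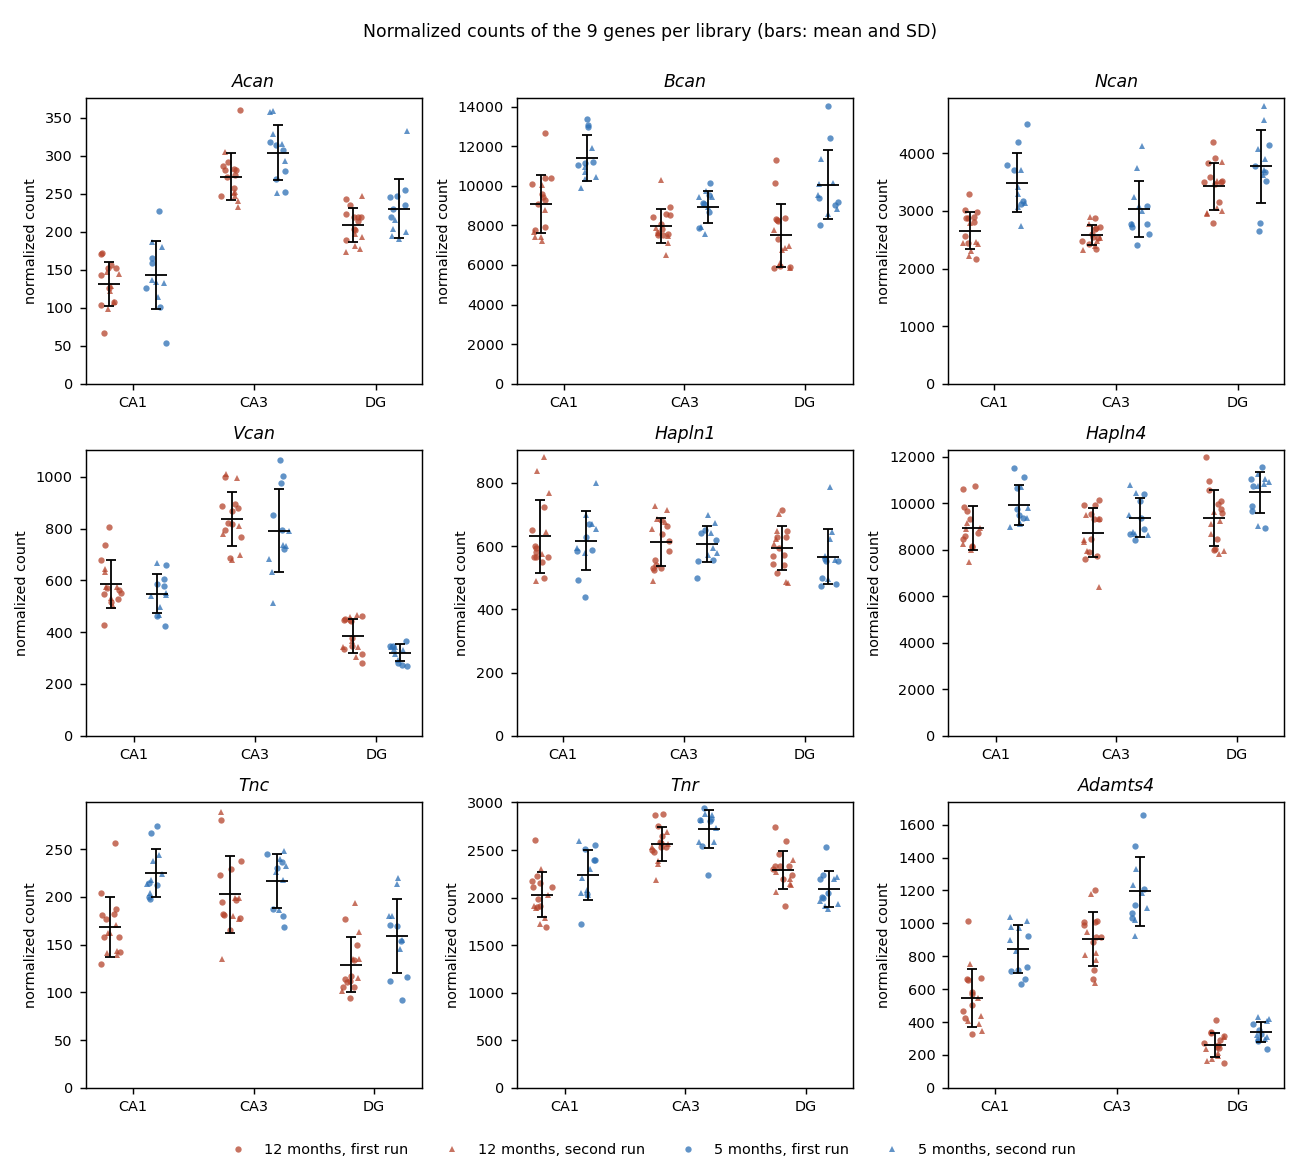
Normalized counts of the 9 genes in each library (y axis) by subregion (x axis), with 12-month rats in red left of 5-month rats in blue, circles for the first run of animal numbers, triangles for the second, and bars for the mean and SD. Adamts4 and Bcan sit lower at 12 months in every subregion, for example a mean of 546 against 843 for Adamts4 in CA1, while Hapln1 shows no shift.

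Brevican, encoded by Bcan, is the most brain-restricted lectican and comes largely from glia. Its lowest, median and highest normalized counts in CA1 were 7198, 9201 and 12670.5 in 12-month rats, against 9883, 11088 and 13389 in 5-month rats. 11 of 16 middle-aged values lay under the lowest young value, and Bcan fell by 0.34 ± 0.07 on the log2 scale (SE, adjusted p = 0.00208). In the DG the same 3 values were 5833, 7146 and 11313 in 12-month rats, against 8036, 9469 and 14034 in 5-month rats. There 10 of 16 middle-aged values lay below every young value, and the gene fell by 0.43 ± 0.09 on the log2 scale (SE, adjusted p = 0.00119). The CA3 values were 6500.0, 7722 and 10295 in 12-month rats, against 7544, 9101 and 10156 in 5-month rats, so the groups overlapped more. Bcan fell by 0.17 ± 0.05 on the log2 scale (SE, adjusted p = 0.0207) in CA3, but this call was lost after quantile normalization, at -0.10 (adjusted p = 0.112), and with the mitochondrial share as a term, at -0.17 (adjusted p = 0.052).

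Neurocan, encoded by Ncan, is a lectican made mainly by neurons and astrocytes and is most abundant in the developing brain. In CA1 its lowest, median and highest counts were 2162, 2671 and 3299 in 12-month rats, against 2743, 3354 and 4516 in 5-month rats. Every middle-aged value lay below the young median, and Ncan fell by 0.39 ± 0.07 on the log2 scale (SE, adjusted p = 0.000753). In CA3 the values were 2326, 2539.8 and 2899 in 12-month rats, against 2416, 2892 and 4131 in 5-month rats. The young CA3 group reached higher and was wider, and the gene fell by 0.22 ± 0.06 on the log2 scale (SE, adjusted p = 0.00897). That fall was -0.07 in the first run (adjusted p = 0.421) and -0.37 in the second (adjusted p = 0.0135), and with the mitochondrial share as a term it was -0.14 (adjusted p = 0.111). The DG values were 2787, 3506 and 4189 in 12-month rats, against 2659, 3747 and 4829.5 in 5-month rats, with the middle-aged range inside the young range. The DG estimate was -0.13 ± 0.08 (SE, adjusted p = 0.179), and by run it was 0.06 in the first run (adjusted p = 0.741) and -0.35 in the second (adjusted p = 0.00275). Without the 3 libraries farthest from their group, those of 5-month rats 3, 6 and 10, it was -0.23 (adjusted p = 0.0101).

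Versican, encoded by Vcan, is the large lectican of loose matrix and nodes of Ranvier, known from oligodendrocyte precursors. It was the only lectican with higher counts at 12 months in every subregion. In the DG its lowest, median and highest counts were 280.0, 370.0 and 465 in 12-month rats, against 268, 334 and 364 in 5-month rats. There 8 of 16 middle-aged values exceeded every young value, and Vcan rose by 0.26 ± 0.08 on the log2 scale (SE, adjusted p = 0.0139). The change was 0.09 ± 0.08 (SE, adjusted p = 0.41) in CA1 and 0.10 ± 0.08 (SE, adjusted p = 0.442) in CA3, neither called, and the means in CA3 were 836 ± 106 in 12-month rats, against 791 ± 159.9 in 5-month rats (SD, n = 16 and 12). In the DG the estimate was 0.31 in the first run (adjusted p = 0.16) and 0.20 in the second (adjusted p = 0.126), so it was called in neither run alone, and without the 3 libraries farthest from their group it was 0.22 (adjusted p = 0.0546).

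Aggrecan, encoded by Acan, is the lectican that defines most perineuronal nets and is made by the neurons that carry them. Its lowest, median and highest counts in CA1 were 67.1, 136 and 171 in 12-month rats, against 53.5, 135 and 227 in 5-month rats, with the middle-aged range inside the young one. For CA3 they were 232, 273 and 361 in 12-month rats, against 251, 311 and 359 in 5-month rats, and in the DG 174, 209 and 247 in 12-month rats, against 191, 224 and 332 in 5-month rats. The ages overlapped in each subregion, with 15 of 16 middle-aged values under the young median in CA3. The changes were -0.08 ± 0.16 (SE, adjusted p = 0.737) in CA1, -0.16 ± 0.06 (SE, adjusted p = 0.0791) in CA3 and -0.13 ± 0.07 (SE, adjusted p = 0.153) in the DG. The CA3 estimate passed the threshold when 12-month rat 6, 5-month rat 5 or 5-month rat 7 was left out, with an adjusted p of 0.0259 at the lowest. By run the CA3 change was -0.04 in the first (adjusted p = 0.819) and -0.31 in the second (adjusted p = 0.0442), so it was called in the second run alone.

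Of the link proteins, Hapln4 pairs with brevican in nets, and Hapln1 is the link protein of aggrecan-rich nets. Hapln4 had lowest, median and highest counts in CA1 of 7464, 8806 and 10749 in 12-month rats, against 8969, 9628 and 11525 in 5-month rats. Although 10 of 16 middle-aged values fell below every young value, the upper parts of both groups overlapped, and Hapln4 fell by 0.15 ± 0.05 on the log2 scale (SE, adjusted p = 0.0382). In the DG it had 7821, 9406 and 12000.4 in 12-month rats, against 8929, 10779.5 and 11533 in 5-month rats. It fell by 0.17 ± 0.06 on the log2 scale (SE, adjusted p = 0.0321) there, and its CA3 change of -0.11 ± 0.06 (SE, adjusted p = 0.189) was not called. These were small changes close to the threshold. The CA1 call was lost without 1 of 12-month rats 3, 9, 10, 12, 15 and 16 or 5-month rats 1, 2, 4 and 8 (adjusted p up to 0.0787), and the DG call without 1 of 12-month rats 1, 7, 11 and 14 or 5-month rats 5, 8 and 12 (up to 0.0544). After quantile normalization the changes were -0.04 (adjusted p = 0.485) in CA1 and -0.06 (adjusted p = 0.385) in the DG, and with the mitochondrial share as a term -0.15 (adjusted p = 0.163) and -0.12 (adjusted p = 0.0654).

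Hapln1 averaged 630.5 ± 115 in 12-month rats, against 617 ± 93.9 in 5-month rats (SD, n = 16 and 12) in CA1. In CA3 it averaged 613 ± 76.4 in 12-month rats, against 606 ± 57.4 in 5-month rats (SD, n = 16 and 12), and in the DG 593 ± 69.4 in 12-month rats, against 566 ± 87.3 in 5-month rats (SD, n = 16 and 12). Its changes were 0.03 ± 0.09 (SE, adjusted p = 0.849) in CA1, 0.01 ± 0.06 (SE, adjusted p = 0.922) in CA3 and 0.07 ± 0.07 (SE, adjusted p = 0.431) in the DG. The groups overlapped almost wholly, and the sign of the CA1 and CA3 estimates turned with single libraries left out (from -0.02 to 0.06 and from -0.01 to 0.03).

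Tenascin-C, encoded by Tnc, is a glial matrix glycoprotein of development and injury, and tenascin-R, encoded by Tnr, is the tenascin that joins lecticans in adult nets. In CA1 the lowest, median and highest Tnc counts were 129.6, 162 and 256 in 12-month rats, against 198, 216 and 274 in 5-month rats. This was the clearest separation in the set, with 14 of 16 middle-aged values below every young value, and Tnc fell by 0.43 ± 0.08 on the log2 scale (SE, adjusted p = 0.00111). In the DG it had 94, 116 and 194 in 12-month rats, against 91.9, 162 and 219.9 in 5-month rats, with a change of -0.29 ± 0.12 (SE, adjusted p = 0.0624). That estimate lay just outside the threshold in limma and just inside it on recovered reads, with adjusted p = 0.0483 in edgeR and 0.0396 in DESeq2. It also passed without 1 of 12-month rats 4, 11 and 13 or 5-month rats 3, 4 and 6. In CA3 Tnc averaged 203 ± 40.6 in 12-month rats, against 216 ± 28.3 in 5-month rats (SD, n = 16 and 12), a change of -0.11 ± 0.09 (SE, adjusted p = 0.424).

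Tnr was the member whose estimate had opposite signs between subregions. In the DG its lowest, median and highest counts were 1911, 2287 and 2744 in 12-month rats, against 1878, 2027 and 2533 in 5-month rats, and 15 of 16 middle-aged values exceeded the young median. Tnr rose by 0.13 ± 0.05 on the log2 scale (SE, adjusted p = 0.0429) there. In CA1 it had 1694, 2005 and 2607 in 12-month rats, against 1725, 2251 and 2595 in 5-month rats, a change of -0.14 ± 0.06 (SE, adjusted p = 0.101). In CA3 it had 2187, 2551 and 2878 in 12-month rats, against 2236, 2809.5 and 2942 in 5-month rats, a change of -0.08 ± 0.04 (SE, adjusted p = 0.157). The DG call was lost without 1 of 12-month rats 1, 2, 5, 7 to 11 and 15 or 5-month rats 3, 4, 6, 7 and 9 to 11 (adjusted p up to 0.0777) and with a term for the run, at 0.12 (adjusted p = 0.0517), and it was 0.10 (adjusted p = 0.137) without the 3 farthest libraries. The CA1 change passed without 12-month rat 3 or 5-month rat 6, and the CA3 change without 5-month rat 2.

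Adamts4, known as aggrecanase-1, cuts aggrecan, brevican, neurocan and versican, and in the adult mouse brain it is transcribed mainly in oligodendrocytes. It had the largest fall of the 9 members in CA1 and CA3. Its lowest, median and highest counts in CA1 were 325, 523 and 1013 in 12-month rats, against 632, 866 and 1039 in 5-month rats. In CA1 11 of 16 middle-aged values lay below every young value, and Adamts4 fell by 0.67 ± 0.13 on the log2 scale (SE, adjusted p = 0.00124), to 0.629 times the 5-month level. In CA3 it had 635, 917 and 1200.3 in 12-month rats, against 922, 1147 and 1661 in 5-month rats and fell by 0.40 ± 0.09 on the log2 scale (SE, adjusted p = 0.00258). In the DG it had 151, 254 and 412 in 12-month rats, against 238, 323 and 429.7 in 5-month rats and fell by 0.42 ± 0.13 on the log2 scale (SE, adjusted p = 0.0106). These DG counts were the lowest of the 3 subregions, and the ages overlapped most there. The CA1 fall was -0.37 in the first run (adjusted p = 0.194) and -1.04 in the second (adjusted p = 0.000235), and the DG fall was -0.16 in the first run (adjusted p = 0.558) and -0.78 in the second (adjusted p = 0.000454), while in CA3 both runs gave a similar value, -0.43 in the first run (adjusted p = 0.0384) and -0.41 in the second (adjusted p = 0.0332). With the mitochondrial share as a term the CA1 change was -0.48 (adjusted p = 0.0614), no longer called.

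**Figure D2:**
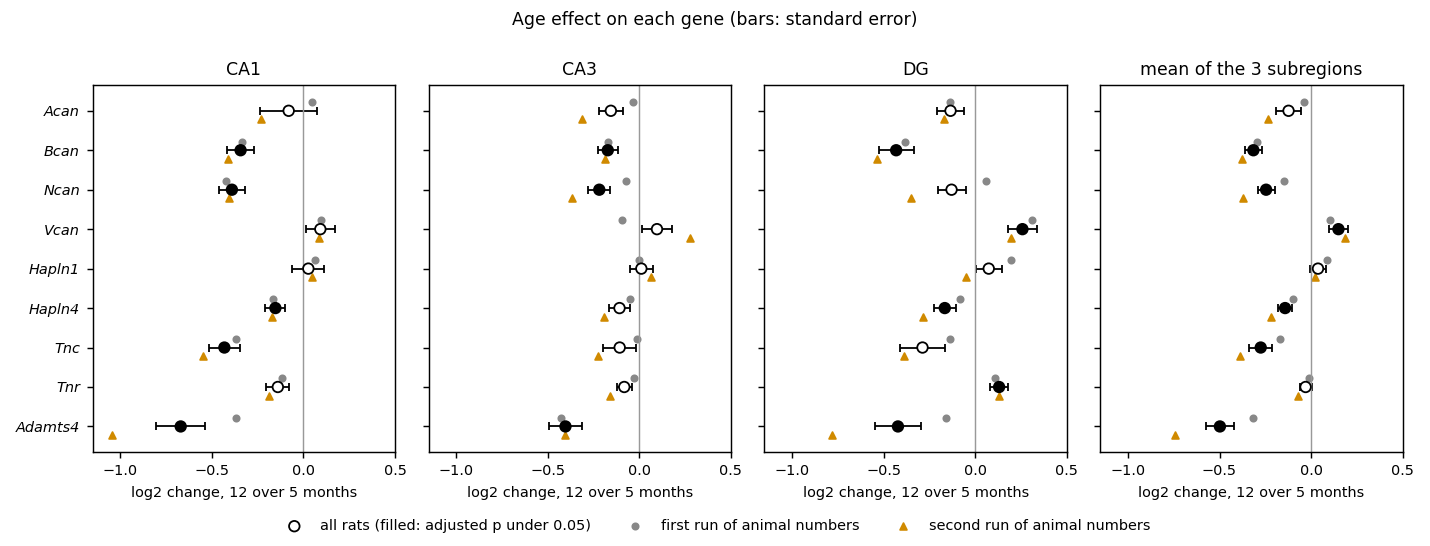
Log2 change at 12 over 5 months (x axis) with its standard error for each gene (y axis) in CA1, CA3, the DG and the mean of the 3 subregions, filled where the adjusted p was under 0.05, with grey circles and orange triangles for the first and second run of animal numbers alone. Adamts4 lies at -0.67, -0.40 and -0.42 in the 3 subregions, and its second-run estimates in CA1 and the DG lie farther from 0 than its first-run ones.

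Averaged over a rat's 3 libraries, Adamts4 changed by -0.50 ± 0.08 (SE, adjusted p = 1.4e-05), Bcan by -0.32 ± 0.05 (SE, adjusted p = 1.13e-05), Tnc by -0.28 ± 0.06 (SE, adjusted p = 0.000565), Ncan by -0.25 ± 0.05 (SE, adjusted p = 9.11e-05) and Hapln4 by -0.14 ± 0.04 (SE, adjusted p = 0.00314). Vcan was the only member that rose, by 0.15 ± 0.05 (SE, adjusted p = 0.0137). Thus 5 of 9 fell and 1 rose, where 24.6% of all genes tested fell and 25.4% rose. Acan changed by -0.12 ± 0.07 (SE, adjusted p = 0.119), Hapln1 by 0.04 ± 0.04 (SE, adjusted p = 0.507) and Tnr by -0.03 ± 0.03 (SE, adjusted p = 0.443), none of them called. By run the averaged Acan change was -0.04 in the first (adjusted p = 0.787) and -0.24 in the second (adjusted p = 0.00966). The age effects were also compared between subregions within each rat. No member's difference passed in limma, where 0.609% of genes were called for DG minus CA1, 2.76% for DG minus CA3 and 0% for CA3 minus CA1. An unadjusted p under 0.05 was found for 2 of 9 members for DG minus CA1, 2 for DG minus CA3 and 1 for CA3 minus CA1. At that unadjusted p stood 2324, 2932 and 1433 of all 14291 genes in the same comparisons. By size the largest was that of Tnc for CA3 minus CA1, at 0.32 ± 0.12 (SE, adjusted p = 0.351). The smallest adjusted p-values were those of Tnr, at 0.27 ± 0.08 for DG minus CA1 (adjusted p = 0.0791) and 0.21 ± 0.07 for DG minus CA3 (adjusted p = 0.0844), while Bcan differed by -0.26 ± 0.11 for DG minus CA3 (adjusted p = 0.162). The first Tnr difference passed without 12-month rat 3 or 6, and the second without 12-month rat 6 or 5-month rat 2. For CA3 minus CA1, limma called 0 of 14291 genes, with 1433 at an unadjusted p under 0.05, and no count-based fit of this difference was run.

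Within the first run of animal numbers, 2 of 9 members were called in CA1 (Bcan and Ncan), 1 in CA3 (Adamts4) and 0 in the DG, all lower at 12 months. Of all genes, 3.19%, 4.83% and 0.172% were called in limma, counting both directions. Within the second run, CA1 had 5 called (Bcan, Ncan, Hapln4, Tnc and Adamts4), CA3 had 3 (Acan, Ncan and Adamts4) and the DG had the same 5 as CA1. All were lower at 12 months, beside 33.8%, 16.5% and 46.9% of all genes called in either direction. In the first-run DG, 3 members (Bcan, Vcan and Hapln1) and 3209 of 14526 genes had an unadjusted p under 0.05. The difference of the age effect between runs passed for no member in limma, where 3.24% (CA1), 0.577% (CA3) and 6.15% (DG) of all genes were called. At an unadjusted p under 0.05 it held for Adamts4 in CA1, for Acan, Ncan and Vcan in CA3, and for Ncan and Adamts4 in the DG. A count over all genes at that unadjusted p was not made for the difference between runs. These names therefore cannot be read as a result about the members. Among members it came nearest for Ncan in the DG, at -0.41 ± 0.14 (second minus first run, SE, adjusted p = 0.0677), then for Adamts4 in the DG, at -0.62 ± 0.23 (adjusted p = 0.107), and in CA1, at -0.68 ± 0.25 (adjusted p = 0.126).

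Because Adamts4 is an oligodendrocyte gene, it was read beside markers of that lineage. Of 10 mature oligodendrocyte markers, 2 fell and 0 rose in CA1, 1 fell and 1 rose in CA3, and 0 fell and 3 rose in the DG. Of all genes tested, 12.8% fell and 12.4% rose in CA1, 10.8% and 10.9% in CA3, and 18.5% each way in the DG. The summed counts of the mature markers in CA1 had a median of 174864 in 12-month rats (range 116312 to 267791), against 207519 in 5-month rats (range 161356 to 293641). In CA3 the sum was 291966 in 12-month rats (range 217663 to 422604), against 300961 in 5-month rats (range 230476 to 375974), and in the DG 73728 in 12-month rats (range 60553 to 97702), against 79782 in 5-month rats (range 59655 to 96086). The mean log2 of the markers in the DG was 11.38 at 12 months and 11.32 at 5 months, the opposite order to the sum. Within age and run, Adamts4 and the mean log2 of these markers moved together over the 28 rats. In CA1 r was 0.81 and rho 0.79 (permutation, adjusted p = 0.000216 and 0.00036), in CA3 r was 0.90 and rho 0.89 (permutation, adjusted p = 0.000216 and 0.00036), and in the DG r was 0.65 and rho 0.58 (permutation, adjusted p = 0.00245 and 0.0196), in 108 relations computed. Without the 2 rats farthest from the median, r was 0.70, 0.87 and 0.58 in these subregions. Adamts4 also ran with the mean of the oligodendrocyte precursor markers, with r of 0.83 (CA1), 0.80 (CA3) and 0.78 (DG) (rho 0.78, 0.78 and 0.72, permutation, adjusted p at most 0.000309 for r and 0.00054 for rho). Without the 2 farthest rats these r were 0.75, 0.74 and 0.66.

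With the mature markers as a term in the fit, the Adamts4 change was -0.50 (adjusted p = 0.000774) in CA1, -0.39 (adjusted p = 7.89e-06) in CA3 and -0.51 (adjusted p = 0.000493) in the DG, so the fall remained called in each. Per 100 normalized counts of Mag, a myelin glycoprotein gene, Adamts4 stood at 11 ± 1.51 at 12 months, against 13.7 ± 1.21 at 5 months in CA1. The ratio was 10.7 ± 1.13 at 12 months, against 13.4 ± 1.17 at 5 months in CA3 and 10.9 ± 1.56 at 12 months, against 12.7 ± 1.03 at 5 months in the DG (SD, n = 16 and 12). This ratio was chosen after the values were seen, and it was lower at 12 months in all 3 subregions.

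**Figure D3:**
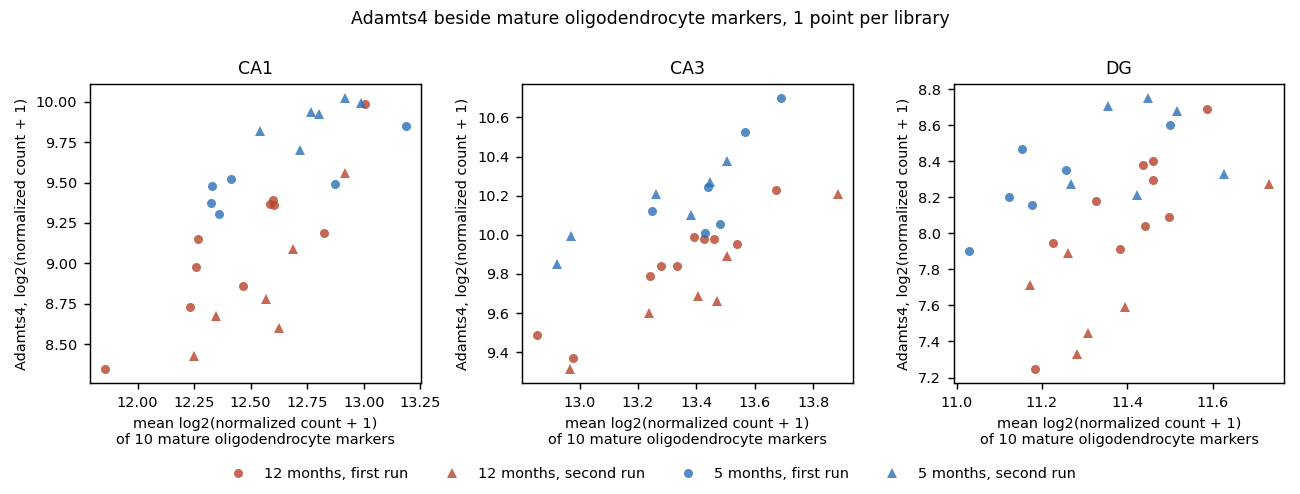
Adamts4 (y axis, log2 of the normalized count plus 1) against the mean log2 level of 10 mature oligodendrocyte markers (x axis) in CA1, CA3 and the DG, 1 point per library, red for 12 months and blue for 5 months, circles for the first and triangles for the second run. Within each age Adamts4 rises with the markers, and most 12-month points lie below the 5-month points at the same marker level.

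Some markers of oligodendrocyte precursors also fell with age. Of 9 tested, CA1 had 4 that fell, CA3 had 3 and the DG had 5, and 0 rose, beside 12.8%, 10.8% and 18.5% of all genes that fell. Olig2 and Sox10 on this list are transcription factors of the whole lineage, so the list is not particular to precursors. Olig2 was called in no subregion, and its estimates were -0.0048, 0.09 and 0.06. Sox10 was among the falls in CA1, at -0.33 ± 0.10 (SE, adjusted p = 0.0163), and in the DG, at -0.32 ± 0.09 (SE, adjusted p = 0.0063). In CA3 Sox10 was not called. Gpr17, a receptor of committed precursors, had 129 ± 31.9 in 12-month rats, against 258 ± 49.7 in 5-month rats in CA1 (SD), a change of -1.01 ± 0.12 (SE, adjusted p = 1.43e-05). Pdgfra, which defines the precursor pool, had 1239.7 ± 169 in 12-month rats, against 1320.0 ± 111 in 5-month rats in CA1, a change of -0.10 ± 0.06 that was not called (adjusted p = 0.247), and it was not called in CA3 or the DG. The summed precursor markers had a median of 5473 in 12-month rats (range 4206 to 6848), against 6535 in 5-month rats (range 5399 to 7307) in CA1. They had 7067 in 12-month rats (range 5888 to 9160.3), against 7783 in 5-month rats (range 6898 to 8804) in CA3 and 3605 in 12-month rats (range 2780.0 to 4632), against 4485 in 5-month rats (range 3298 to 4775) in the DG. In whole tissue, fewer cells of a type and less RNA per cell cannot be told apart.

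With the precursor markers as a term, the Adamts4 change was -0.15 (adjusted p = 0.465) in CA1, -0.20 (adjusted p = 0.0216) in CA3 and -0.02 (adjusted p = 0.957) in the DG. These markers differ with age themselves, and the same term left 217 genes called in CA1 and 133 in the DG, against 3700 and 5382 without it. Ncan in CA1, at -0.39 (adjusted p = 0.0339), and in CA3, at -0.24 (adjusted p = 0.01), and Adamts4 in CA3 were the 3 of 13 member calls that held under it. Among astrocyte markers, 0 of 10 rose and 3 fell in CA1, 1 rose and 2 fell in CA3, and 1 rose and 2 fell in the DG. Beside these counts, 12.4% of all genes rose and 12.8% fell in CA1, 10.9% and 10.8% in CA3, and 18.5% each way in the DG. The part of the astrocyte markers in the members' changes was not tested. The summed astrocyte markers in CA1 had a median of 67710.4 in 12-month rats (range 61359.7 to 87032), against 72274 in 5-month rats (range 61579 to 84595). In CA3 the order was the opposite, at 70676 in 12-month rats (range 60451 to 83632), against 66400 in 5-month rats (range 61104 to 78094). In the DG the sum was 58222 in 12-month rats (range 49515 to 71471), against 58750 in 5-month rats (range 49313 to 64152).

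Across subregions the levels are a description, since the 3 tables were normalized separately. Acan was highest in CA3: its CA3 count exceeded that of CA1 in 28 of 28 rats, with a median ratio of 2.1 (range 1.34 to 5.03), and the DG exceeded CA1 in 28 of 28, with 1.53 (range 1.04 to 4.29). Adamts4 was lowest in the DG in 28 of 28 rats, with a median DG to CA1 ratio of 0.453 (range 0.268 to 0.737), and CA3 exceeded CA1 in 26. Vcan followed the same order, with a DG to CA1 ratio of 0.622 (range 0.453 to 0.883) and CA3 above CA1 in 27 of 28. These 3 genes thus had the steepest differences between subregions.

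Tnr was higher in CA3 than in CA1 in 26 of 28 rats, with a median ratio of 1.28 (range 0.935 to 1.53). For DG over CA1 its ratio had a median of 1.14 in 12-month rats and 0.933 in 5-month rats, with the DG higher in 13 of 16 and 2 of 12. Ncan was highest in the DG, above CA3 in 26 of 28 rats with a ratio of 1.34 (range 0.943 to 1.46), whereas Bcan was highest in CA1, above CA3 in 25 of 28. Tnc was lowest in the DG, under CA1 in 26 of 28 rats. Hapln1 and Hapln4 were nearly level between CA3 and CA1, with CA3 higher in 14 and 12 of 28 rats, so CA3 and CA1 did not separate beyond the spread between rats. The DG exceeded CA3 in 22 of 28 rats for Hapln4, with a median ratio of 1.06, and in 11 for Hapln1. On the RPM scale (reads scaled to a common library total) CA3 exceeded CA1 in 8 of 28 rats for Hapln1 and 5 of 28 for Hapln4, so how far CA3 and CA1 separate for these 2 genes depends on the scaling, with median ratios below 1 on both scales. On that scale the DG exceeded CA3 in 8 of 28 rats for Tnc, instead of 2, and in 8 for Tnr, instead of 3. For Hapln4 it did so in 25, instead of 22, and for Hapln1 in 17, instead of 11.

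**Figure D4:**
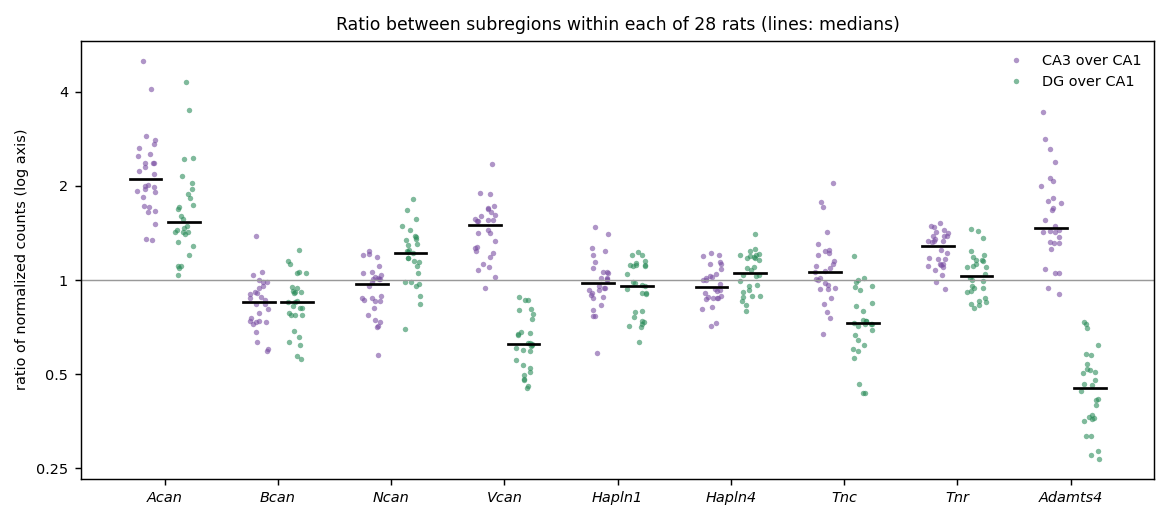
Ratio of normalized counts between subregions within each of 28 rats (y axis, log scale) for the 9 genes (x axis), purple for CA3 over CA1 and green for DG over CA1, with lines at the medians. Acan ratios lie above 1 in every rat, and the DG over CA1 ratios of Vcan and Adamts4 lie below 1 in every rat.

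CA2 pyramidal cells, whose nets are dense, lie between CA3 and CA1 and could enter either dissection. Summed CA2 markers had a median in CA3 of 7341 in 12-month rats (range 6001 to 8232), against 7507 in 5-month rats (range 7312 to 8349.5), and in CA1 of 5352 in 12-month rats (range 4284 to 6779), against 5692 in 5-month rats (range 4852 to 7229.7). They were detected in every subregion, and 0 of 5 tested were called in CA1 or CA3 by limma, where 0 of 5 also had an unadjusted p under 0.05. At 12 months Amigo2 and Cacng5 had their highest means in CA3, at 654 and 517. Pcp4 averaged 2043 in the DG, against 1640 in CA3, and Ntf3 330 in the DG, against 129 in CA3. Rgs14 averaged 4154 in CA1 and 4295 in CA3. The sums are therefore not a measure of CA2 cells alone. In the DG the sum was 4202 in 12-month rats (range 3782 to 5246), against 4657 in 5-month rats (range 3251 to 5145), and 1 of 5 fell. Parvalbumin interneurons are the other net-bearing cells. The 14 genes listed for them include some of other GABA neurons too, such as Gad1, Gad2, Slc32a1 and Sst. The list therefore does not measure parvalbumin cells alone. Of the 14 genes, 4 fell and 0 rose in CA1, 2 fell and 0 rose in CA3, and 3 fell and 1 rose in the DG, where the list median was 0.04 (12.8%, 10.8% and 18.5% of all genes fell). Pvalb, the calcium-binding protein that names these cells, was called in no subregion, at -0.07 ± 0.10 in CA1 (adjusted p = 0.638), -0.12 ± 0.10 in CA3 (adjusted p = 0.388) and -0.17 ± 0.11 in the dentate gyrus (adjusted p = 0.189). Gad2, a GABA-synthesising enzyme, rose in the DG by 0.19 ± 0.07 (adjusted p = 0.0312), and so did Vip, a marker of another interneuron class, by 0.34 ± 0.12 (adjusted p = 0.027). Kcnc1, a fast potassium channel of these cells, fell to 1536 ± 142 in 12-month rats, against 1786 ± 206 in 5-month rats in CA1 (SD, change -0.21 ± 0.06, adjusted p = 0.00999). Slc32a1, the vesicular GABA transporter, fell in all 3, to 1099 ± 213 in 12-month rats, against 1456 ± 271 in 5-month rats in the DG (SD, change -0.41 ± 0.10, adjusted p = 0.00199).

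Variation between rats of the same age and run tied some members together and set others apart. Of 36 pairs in each subregion, CA1 had 4 positive and 3 negative correlations, CA3 had 4 and 5, and the DG had 5 and 2, at a permutation p adjusted over 108 relations. Tnc and Adamts4 in CA3 had the highest r of the 108. There r was 0.84 and rho 0.81 (permutation, adjusted p = 0.00216 and 0.00108, r = 0.78 without the 2 farthest rats), in CA1 r was 0.70 and rho 0.59 (permutation, adjusted p = 0.0132 and 0.0229, r = 0.43 without the 2 farthest rats), and in the DG r was -0.12 and rho -0.15 (permutation, adjusted p = 0.684 and 0.633, r = -0.08 without the 2 farthest rats). The CA1 relation thus leaned on 2 rats. The neighbouring genes Ncan and Hapln4 were correlated in CA1, where r was 0.63 and rho 0.59 (permutation, adjusted p = 0.0134 and 0.0227, r = 0.58 without the 2 farthest rats), and in the DG, where r was 0.54 and rho 0.55 (permutation, adjusted p = 0.0239 and 0.0295, r = 0.43 without the 2 farthest rats). In CA3 their correlation did not pass, as r was 0.26 and rho 0.22 (permutation, adjusted p = 0.376 and 0.448, r = 0.11 without the 2 farthest rats).

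The other adjacent lectican and link protein genes, Vcan and Hapln1, were correlated in the DG, where r was 0.51 and rho 0.54 (permutation, adjusted p = 0.0255 and 0.0295, r = 0.54 without the 2 farthest rats). Their r was 0.29 in CA1 and -0.10 in CA3, neither called. Vcan and Hapln4 ran opposite to each other, since in CA3 r was -0.65 and rho -0.65 (permutation, adjusted p = 0.009 and 0.0157, r = -0.60 without the 2 farthest rats) and in CA1 r was -0.63 and rho -0.61 (permutation, adjusted p = 0.0134 and 0.0195, r = -0.56 without the 2 farthest rats). Bcan and Adamts4 were correlated in the DG, where r was 0.62 and rho 0.62 (permutation, adjusted p = 0.0134 and 0.0157, r = 0.54 without the 2 farthest rats). These values describe rats within an age and do not bear on the age effect.

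**Figure D5:**
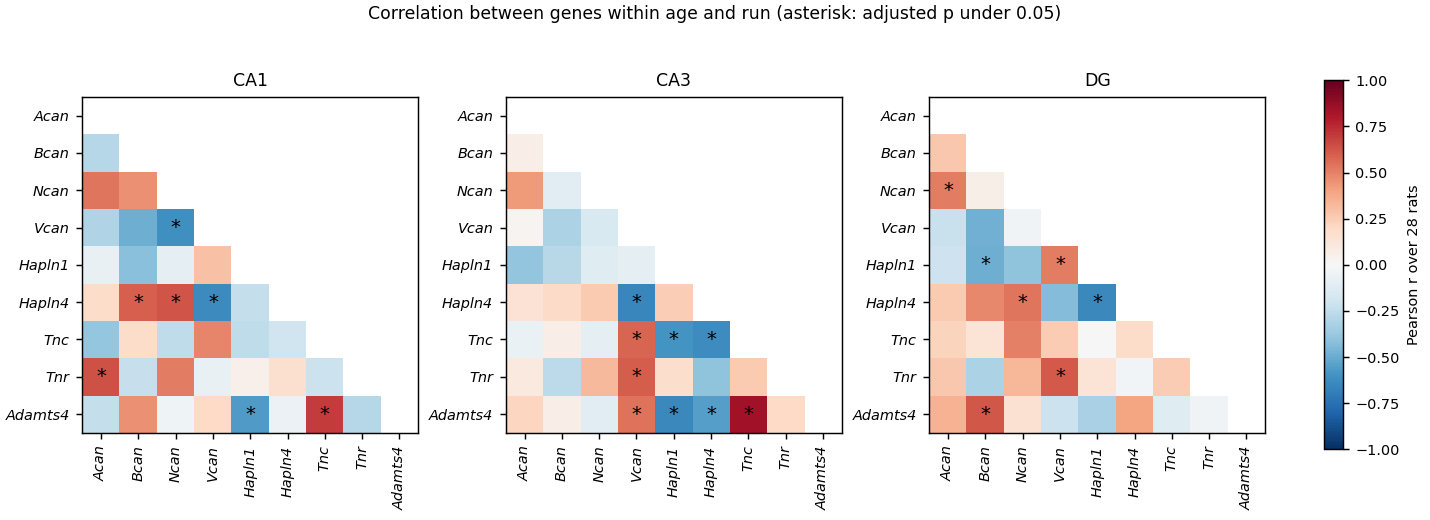
Pearson correlation over 28 rats between each pair of the 9 genes in CA1, CA3 and the DG, on log2 values with the mean of each age and run removed (colour from -1 in blue to 1 in red, asterisk for a permutation p under 0.05 after adjustment over 108 relations). Tnc with Adamts4 is the darkest red cell in CA3, at 0.84, and Vcan with Hapln4 is blue in all 3 subregions.

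The genes whose pattern over the 28 rats was most like each member were ranked among 12102 genes by the mean of the 3 within-subregion correlations, given here as a description. For Adamts4 they were Mag (0.91), Unc5b (0.89) and Galnt6 (0.89). For Bcan they were Gnl1 (0.87), Mapk8ip1 (0.85) and Agt (0.85), and for Ncan Hectd4 (0.77), Atp2b2 (0.75) and Atxn1 (0.75). Hapln4 was closest to Dagla (0.87), B3gat1 (0.85) and Strn4 (0.83). Vcan was closest to Ptprd (0.81), Arap2 (0.80) and Myo6 (0.76), and Tnr to Cacna1e (0.78), Huwe1 (0.78) and Ank2 (0.77). Acan had only weaker matches, Tbc1d24 (0.58), Usp22 (0.56) and RGD1304884 (0.55), and so had Tnc, with Kank1 (0.62) and Chd7 (0.62). Genes close to Hapln1 included Slc30a4 (0.71) and Gria2 (0.67). Mag is a myelin gene, and Gria2 is a subunit of AMPA receptors.

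The wider pathway was described from lists of genes. Of 12 chondroitin sulfate proteoglycans, members included, CA1 had 5 that fell and 1 that rose, CA3 had 5 and 1, and the DG had 4 and 3, with list medians of -0.12, -0.16 and -0.13. Cspg4, the NG2 proteoglycan of precursors and pericytes, fell in all 3, in the DG to 684 ± 165 in 12-month rats, against 918 ± 169.7 in 5-month rats (SD, change -0.44 ± 0.11, adjusted p = 0.00345). Cspg5, or neuroglycan C, fell to 2373 ± 430.2 in 12-month rats, against 3143 ± 433 in 5-month rats in CA1 (change -0.41 ± 0.08, adjusted p = 0.00156). Spock3, a testican, rose in all 3, in the DG to 974 ± 149 in 12-month rats, against 731 ± 84 in 5-month rats (change 0.41 ± 0.07, adjusted p = 0.000276).

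For the hyaluronan backbone, CA1 had 2 of 14 genes that fell, CA3 had 0 and the DG had 2, and 0 rose in any (limma; 3 of 14 had an unadjusted p under 0.05 in CA3). Besides Hapln4 these were the hyaluronidase genes Hyal1 in CA1, at 187 ± 34.6 in 12-month rats, against 235 ± 39.5 in 5-month rats, and Hyal2 in the DG, at 328 ± 56.9 in 12-month rats, against 396 ± 52.6 in 5-month rats. Of 25 genes for chondroitin sulfate synthesis and sulfation, CA1 had 4 that fell and 1 that rose, CA3 had 2 and 2, and the DG had 7 and 0. Xylt1, which starts the sugar chain, fell to 639 ± 94.7 in 12-month rats, against 835 ± 117 in 5-month rats in CA1 (SD, change -0.38 ± 0.08, adjusted p = 0.00186). Chpf, a chain polymerising factor, fell to 2289.7 ± 362 in 12-month rats, against 3062 ± 412 in 5-month rats in the DG (change -0.42 ± 0.08, adjusted p = 0.000351). In CA3 the rises were those of the epimerase genes Dse and Dsel, by 0.35 ± 0.11 and 0.27 ± 0.08.

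Among matrix proteases and inhibitors, 10 of 33 fell and 2 rose in CA1, 5 of 34 and 2 in CA3, and 8 of 33 and 3 in the DG. The membrane-bound metalloproteases Mmp15 and Mmp24 fell in all 3 subregions, in the DG to 776 ± 143 in 12-month rats, against 1066 ± 181 in 5-month rats for Mmp15 (SD, change -0.46 ± 0.10, adjusted p = 0.000788) and to 1584 ± 263 in 12-month rats, against 2093 ± 190.0 in 5-month rats for Mmp24 (change -0.41 ± 0.07, adjusted p = 0.000296). Ctss, a microglial cathepsin that can cut net proteins, rose to 2441 ± 1175 in 12-month rats, against 1539.9 ± 151 in 5-month rats in CA1 (change 0.59 ± 0.12, adjusted p = 0.00178). The count of 12-month rat 10, whose microglial markers stood apart, was 6774 in CA1, and the next highest at 12 months was 2490.4. Without that rat the Ctss change was 0.48 ± 0.06 (SE, adjusted p = 7.42e-06). Over all rats 3 of 9 microglial markers rose in CA1 and 6 in CA3, where 12.4% and 10.9% of all genes rose. Without that rat, an alternative chosen after seeing the data, 3, 8 and 2 of the 9 markers rose in these subregions. Adam10, a sheddase, rose to 755 ± 93.7 in 12-month rats, against 563 ± 73.2 in 5-month rats in the DG (change 0.42 ± 0.07, adjusted p = 0.000173).

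Of the tenascins and other net and synapse matrix genes, 3 of 22 fell and 1 rose in CA1, 4 of 22 and 2 in CA3, and 6 of 21 and 2 in the DG. Lamb2, a laminin chain of vessel walls, fell in all 3, in the DG to 825 ± 167 in 12-month rats, against 1088 ± 172 in 5-month rats (SD, change -0.41 ± 0.09, adjusted p = 0.00176). Itih3, whose product binds hyaluronan, rose to 2565 ± 101 in 12-month rats, against 2313 ± 145 in 5-month rats in CA3 (change 0.15 ± 0.03, adjusted p = 0.00211). Nptx2, a pentraxin found in nets, fell to 1911 ± 212 in 12-month rats, against 2251 ± 198 in 5-month rats in the DG (change -0.24 ± 0.06, adjusted p = 0.00209). Of 23 receptors for chondroitin sulfate and tenascins, 8 fell in each subregion, and 0, 1 and 4 rose in CA1, CA3 and the DG. Lingo1, a partner of the Nogo receptor, fell in all 3, in the DG to 2879 ± 451 in 12-month rats, against 4098 ± 784 in 5-month rats (change -0.50 ± 0.09, adjusted p = 0.000356). Rtn4r, the Nogo receptor itself, fell to 1699.6 ± 304 in 12-month rats, against 2314 ± 298 in 5-month rats in the DG, and Ptprs, a phosphatase receptor for chondroitin sulfate, fell to 10862 ± 1014 in 12-month rats, against 12563 ± 1325 in 5-month rats in CA3 (change -0.21 ± 0.05, adjusted p = 0.00635). These shares of called genes can be read against the 25.2%, 21.7% and 37.1% of all genes called in CA1, CA3 and the DG.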

How the data were processed

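RNA was sequenced from CA1, CA3 and the DG of each rat as polyadenylated RNA. The deposited values are a signal, gene counts that the authors divided by 1 size factor per library, with a separate table for each subregion; STAR 2.5.3a, Partek, DESeq2 3.5 and the rn6 build are named per the submitters' processing notes. Neither annotation nor strand use is given in the sources used here, so antisense or overlapping genes cannot be told apart. Whole reads were recovered from the steps of the values, and 100% of values up to 1000 reads lay within 0.1 of a whole number.

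The test was limma 3.58.1 (R 4.3.3, trend, two-sided, Benjamini-Hochberg) on log2(value + 1), for genes that reached 10 in 12 or more of the 28 libraries, with a threshold of 0.05. Fold changes on this scale understate those of low genes. Fits were made per subregion, on the mean of a rat's 3 subregions, and on differences within a rat; the animal number in the titles pairs the libraries of a rat. A CA3 column that carries an animal number alone was taken as that animal's CA3 library. Rats are the replicates. The recovered counts were tested with edgeR 4.0.16, which called 3853 (CA1), 3245 (CA3) and 5468 (DG) genes, and with DESeq2 1.42.0. The fits were tested on simulated data.

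Correlations used log2 values with the mean of each age and run removed and 100000 permutations, whose smallest p is 1e-05. All 9 members were named, with up to 3 genes per list and subregion with the smallest p among those called, and 3 genes most like each member, of which some are not reported here. The members and lists were chosen with earlier results of these data known. Other pseudocounts, filters, scalings, tools, run terms and single rats left out were tried. The fits without the farthest libraries, with marker or mitochondrial terms and with the interaction of age and run were chosen after seeing the data.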

Additional observations from a re-analysis of the deposited data

How the results depend on the processing

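Of 13 member calls within subregions, all 13 were kept with a pseudocount of 0.5 or 5, without the filter, with a filter at 50, TMM, the median of ratios, robust moderation, edgeR, DESeq2 and the mature oligodendrocyte term. The run term kept 12, the farthest libraries left out 11, quantile normalization 10, the second run alone 10, the mitochondrial term 8, and the first run alone and the precursor term 3 each; the cause was not tested. The first run alone called 468 genes in CA1, 719 in CA3, 25 in the DG and 2628 on average, and the second, with fewer rats, called 4958, 2462, 6812 and 8304. The run term called 266 genes for DG minus CA1 and 33 for CA3 minus CA1, and a pseudocount of 5 called 2 for the last. Without the replicate block, treating the rats as unpaired, the differences called 8 (DG minus CA1), 170 (DG minus CA3) and 7 (CA3 minus CA1), and the average with the rat as replicate block called 7332. The precursor term called 217 in CA1 and 133 in the DG, and the mitochondrial term 727 in CA1 and 2048 in CA3.

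Signs turned in the first run for Acan in CA1 (0.049), Vcan in CA3 (-0.092), Hapln1 in CA3 (-0.000614) and Ncan in the DG (0.059), in the second for Hapln1 in the DG (-0.050), and with the run term for Vcan in CA3 minus CA1 (-0.018). They turned with the precursor term for Hapln1 in CA1 (-0.15) and CA3 (-0.089) and Tnc in CA3 (0.042), and with the mitochondrial term for Acan in CA1 (0.26), Vcan in CA1 (-0.0051) and Hapln1 in CA1 (-0.054) and CA3 (-0.021).

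With single rats left out, DG minus CA1 called 17 to 376 genes, DG minus CA3 115 to 908 and CA3 minus CA1 0 to 20. Signs turned for Hapln1 in CA1 (-0.016 to 0.062) and CA3 (-0.014 to 0.032), for Acan (-0.13 to 0.067) and Hapln4 (-0.042 to 0.012) in DG minus CA1, for Acan (-0.019 to 0.049) and Adamts4 (-0.069 to 0.043) in DG minus CA3, and for Acan (-0.14 to 0.030), Vcan (-0.050 to 0.040) and Hapln1 (-0.050 to 0.036) in CA3 minus CA1. Acan passed on average without 5-month rat 6 (adjusted p = 0.0173). At the recovered depth no member was near the filter on low values.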

Other observations

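Other members followed markers of cell types over rats of the same age and run, in the family of 108 relations that holds the Adamts4 values. Bcan ran with the mean of the oligodendrocyte precursor markers in the DG, where r was 0.82 and rho 0.85 (permutation, adjusted p = 0.000216 and 0.00036), and with astrocyte markers there, where r was 0.78 and rho 0.68 (permutation, adjusted p = 0.00072 and 0.00756). Without the 2 farthest rats these r were 0.82 and 0.69. Neither Bcan relation was called in CA1 or CA3. With precursor markers r was 0.43 and 0.19 there (permutation, adjusted p = 0.131 and 0.652). With astrocyte markers it was 0.27 and 0.26 (permutation, adjusted p = 0.407 and 0.456). Tnc ran with the mature oligodendrocyte markers in CA3, where r was 0.79 and rho 0.73 (permutation, adjusted p = 0.000309 and 0.000617), and in CA1, where r was 0.75 and rho 0.61 (permutation, adjusted p = 0.000675 and 0.0189), but not in the DG, where r was -0.26 and rho -0.15 (permutation, adjusted p = 0.456 and 0.714). With the precursor markers, Tnc had r of 0.71 and rho of 0.59 in CA3 (permutation, adjusted p = 0.0039 and 0.0189). In CA1 these were 0.71 and 0.66 (permutation, adjusted p = 0.00245 and 0.00756), and in the DG 0.25 and 0.17, not called. The precursor r was 0.53, 0.57 and 0.16 in CA3, CA1 and the DG without the 2 farthest rats. Tnr ran against the mature oligodendrocyte markers in CA1, where r was -0.59 and rho -0.68 (permutation, adjusted p = 0.0212 and 0.00675).

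Hapln4 ran against the mature oligodendrocyte markers in CA3, where r was -0.67 and rho -0.61 (permutation, adjusted p = 0.00478 and 0.015). This was not particular to that list. In CA3 its r was -0.58 with precursor and -0.55 with astrocyte markers (rho -0.56 for each, permutation, adjusted p = 0.0267 and 0.015 for r). With interneuron markers r was 0.58 and rho 0.48 (permutation, adjusted p = 0.0241 and 0.0639). Vcan ran with the mature oligodendrocyte markers in CA3, where r was 0.64 and rho 0.53 (permutation, adjusted p = 0.0039 and 0.0292). It ran against interneuron markers there, where r was -0.59 and rho -0.54 (permutation, adjusted p = 0.0049 and 0.0285). Without the 2 farthest rats, r with the mature markers was 0.69 and 0.62 for Tnc in CA3 and CA1, -0.56 for Tnr, -0.62 for Hapln4 and 0.57 for Vcan. For Vcan with interneuron markers it was -0.63. For Hapln4 in CA3 it was -0.48, -0.50 and 0.48 with precursor, astrocyte and interneuron markers. Markers in whole tissue do not show which cells transcribe a member, and this was not tested.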
